A study of Mus musculus with 29 samples.

Results

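The lysosomal hydrolases and membrane proteins measured here are the products of 46 genes, taken as the features of a deposited count table whose Ensembl IDs map to the member symbols, out of 48023 genes in all. They comprise 9 membrane proteins (Lamp1, Lamp2, Scarb2, Cd63, Npc1, Cln3, Mcoln1, Abcb9 and Igf2r), 11 glycosidases, 5 sulfatases, 7 lipid hydrolases with their activators and carriers, 13 proteases and progranulin (Grn). RNA came from tibialis anterior (TA) muscle of 29 male mice, labelled C57BL/6J, 2 to 3 months old by their labels, in 2 lines and 8 groups. In the p110α line exon 1 of Pik3ca is floxed, and in the p110β line exon 2 of Pik3cb is floxed. These genes encode the catalytic subunits p110α and p110β of phosphatidylinositol 3-kinase (PI3K), the enzyme that carries the insulin signal to AKT. In knockout mice (M-p110αKO and M-p110βKO) the floxed exon was removed by a Cre recombinase driven by the human skeletal actin promoter, which acts in muscle fibers and not in the other cells of the muscle. Controls, labelled WT, were floxed mice of the same line without Cre. Among controls, 4 fed and 4 fasted mice of the p110α line and 3 fed and 3 fasted mice of the p110β line were sequenced. Among knockouts, 4 M-p110αKO were fed and 3 fasted, and 4 M-p110βKO were fed and 4 fasted. Fasting lasted 24 h. The supplementary methods describe the p110β line as a less pure C57BL/6 strain, so the floxed gene and the genetic background of the lines cannot be told apart. Mice are named below by the running numbers 1 to 29 of their labels.

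Lysosomes are acidic organelles that break down proteins, glycogen, glycans and lipids delivered by autophagy and endocytosis. Their soluble hydrolases are carried from the Golgi by mannose 6-phosphate receptors such as Igf2r, and their membrane proteins protect the limiting membrane, fuse it with autophagosomes and export the products. In muscle, fasting lowers insulin and PI3K-AKT signaling, and the transcription factors FoxO and TFEB, which AKT and mTORC1 hold in the cytosol, are known activators of autophagy and lysosome genes. TFEB binds the CLEAR element, whose core holds an E-box.

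Promoters are shown because the members differ in whether they hold the letters of that element. RefSeq promoters of GRCm38.p6 (250 bases before to 50 after a start) matched 41 of the 46 members, with 45 promoters, and Asah1, Ctsb, Ctsh, Galns and Npc1 had no match. Each motif was searched on both strands. The palindrome TCACGTGA was found in 6 of the 45 member promoters (13.3%) and in 0.974% of all 32851 promoters. The E-box CACGTG, which is also counted inside TCACGTGA, was found in 15 (33.3%) and in 7.15% of all. The FoxO letters GTAAACA were found in 0 member promoters and in 3.65% of all. The stretches below lie upstream of the RefSeq start, read 5′ to 3′ on the gene's strand, with every match of TCACGTGA or CACGTG in capitals. The first 6 are the members with TCACGTGA, and the last 3 hold the E-box alone.
Ctsd, chr7:142387900-142387945 (-): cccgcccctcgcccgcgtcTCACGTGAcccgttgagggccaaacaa
Ctsa, chr2:164833741-164833772 (+): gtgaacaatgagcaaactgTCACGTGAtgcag
Gla, chrX:134601174-134601252 (-): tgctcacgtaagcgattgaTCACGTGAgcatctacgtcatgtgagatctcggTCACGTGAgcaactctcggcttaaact
Igf2r, chr17:12769707-12769774 (-): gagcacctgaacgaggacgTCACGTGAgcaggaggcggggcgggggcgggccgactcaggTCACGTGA
Mcoln1, chr8:3500454-3500499 (+): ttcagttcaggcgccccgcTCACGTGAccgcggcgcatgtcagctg
Cln3, chr7:126583332-126583377 (-): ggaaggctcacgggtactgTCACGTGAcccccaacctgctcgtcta
Lamp1, chr8:13159080-13159160 (+): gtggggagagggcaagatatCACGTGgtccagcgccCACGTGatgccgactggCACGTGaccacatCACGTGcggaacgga
Ctsl, chr13:64370731-64370770 (-): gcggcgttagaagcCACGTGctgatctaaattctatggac
Gaa, chr11:119267803-119267848 (+): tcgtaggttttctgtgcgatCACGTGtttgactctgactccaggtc
The promoters of Lamp2, Neu1 and Idua held none of the 3 motifs. A match is a run of letters in this window and not a measured binding site.

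Assigned reads ranged from 5351935 to 11653239 per library. Levels are given as CPM, a gene's reads per 1000000 assigned reads of its library, with scaling factors set over all 29 libraries, and all 46 members passed the filter on low counts in every fit. No pair of libraries within a group was a copy of another, since chi-square per degree of freedom was 3.64–28.05 over 39 pairs. Each deletion takes out 1 floxed exon, and a gene's total count need not show it. In fed mice Pik3ca lay at 103–150.4 CPM in controls against 106–163 in M-p110αKO, and Pik3cb at 9.96–10.7 CPM in controls against 9.51–11.7 in M-p110βKO. In fasted mice the log2 changes were -0.09 ± 0.14 (SE) and 0.04 ± 0.14. The paper reports reduced p110α and p110β mRNA in hindlimb muscle of the knockouts. These total counts do not show that reduction, and the reason was not tested. The summed CPM of 9 muscle fiber markers such as Acta1 and Ckm was 109800–149200 in every library, whereas 13 macrophage markers summed to 19.4–91.7 and 7 fibroblast markers to 156–649. Mice 23 and 24 of the fasted controls of the p110β line stood apart, with 7 adipocyte markers summing to 387 and 424 CPM, against 172 in mouse 25, the third of that group. Since whole muscle was sequenced, fewer cells of a type and less RNA per cell cannot be told apart. GENCODE M21 puts an exon of another gene over an exon of 17 members, 15 of them on the opposite strand, and with the strand setting unknown such reads cannot be assigned with certainty. Those described below include Ctsd, Ctsl, Npc1, Hexa, Arsa, Idua, Sgsh and Lamp1.

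Levels of the members spanned 3 orders of magnitude once divided by exon length. Ctsd, encoding the aspartic protease cathepsin D, averaged 396 ± 70.6 CPM per kb (SD, n = 29 libraries), and Psap, the precursor of the saposins that activate sphingolipid hydrolases, 380.4 ± 33.8. Lamp1, a main glycoprotein of the lysosomal membrane, came next at 195 ± 27.2. Gaa, the acid α-glucosidase that degrades glycogen and is deficient in Pompe disease, was the highest glycosidase at 63.1 ± 19.9 CPM per kb, and Ctsb, cathepsin B, stood at 49.5 ± 3.73. The ranges of Ctsd and Psap overlapped over the libraries, as did those of Gaa and Ctsb. The lowest members were Arsb and Galns, at 0.343 ± 0.0973 and 0.354 ± 0.168 CPM per kb, and Ctss, the cathepsin of antigen-presenting cells, had 0 to 38 reads. The spread was unequal: Npc1, the cholesterol exporter of the lysosomal membrane, ran from 2.83 to 39.7 CPM per kb, whereas Ctsb stayed within 43.5–57.6.

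**Figure D1:**
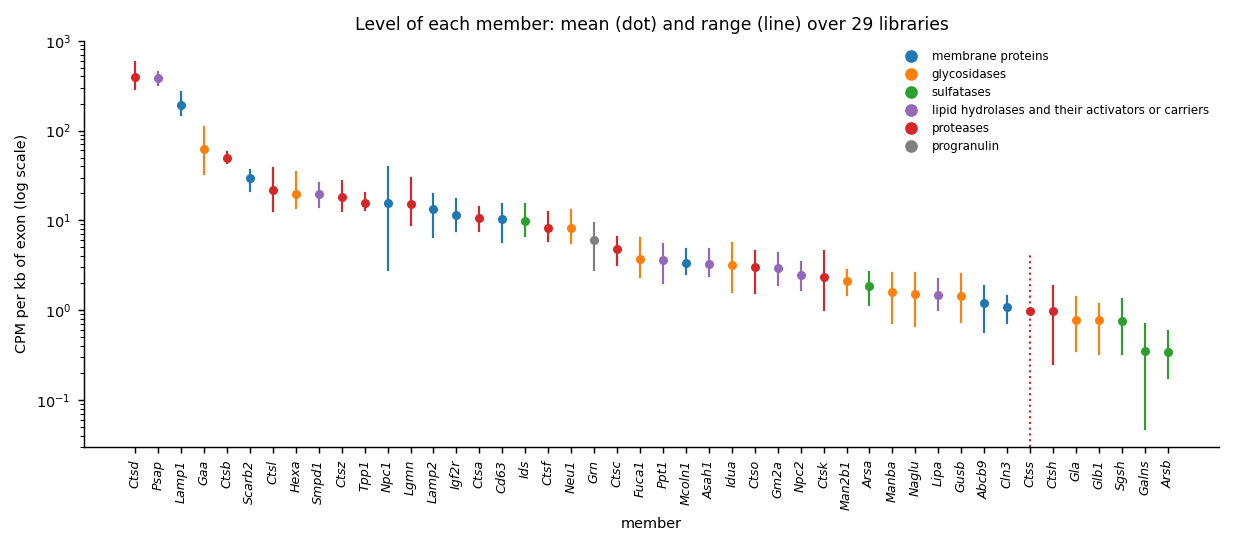
Level of each of the 46 members in CPM per kb of exon (vertical, log scale), in order of the mean; dots are means and lines the range over 29 libraries, colored by role, and the dotted line of Ctss reaches a library with 0 reads. Ctsd and Psap lie near 400 CPM per kb, and Arsb and Galns near 0.35.

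Fasting moved a minority of the members, and the same 5 rose in controls and knockouts of both lines: Lamp2, Npc1, Ctsl, Idua and Neu1. The 4 fasting comparisons share no library. In controls of the p110α line 6 of 46 members rose (15.4% of all 12433 genes tested rose) and 5 fell (14.7% of all fell). In M-p110αKO 11 rose (11.6% of all) and 3 fell (9.91%). Among controls of the p110β line 10 rose (14.5% of 12249 genes) and 2 fell (12.4%). In M-p110βKO 8 rose (19% of all) and 13 fell (18.9%). With offsets for GC content and exon length this last split was 10 and 10. Of 12000 genes tested in both lines, 4.5% rose in all 4 comparisons and 3.24% fell in all 4, so 5 members rising and 0 falling in all 4 are to be read against those shares. The median log2 change of the members was -0.01, 0.09, 0.08 and -0.12 in the 4 comparisons, and that of all genes lay between -0.02 and 0.00. The same offsets ended the calls of Cd63, Npc1, Smpd1 and Abcb9 in controls of the p110α line, and DESeq2 those of Npc1 in both genotypes of that line. No member was called in opposite directions by different fasting comparisons, and 15 members were called in no comparison of fasting or of knockout and control within a line.

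**Figure D2:**
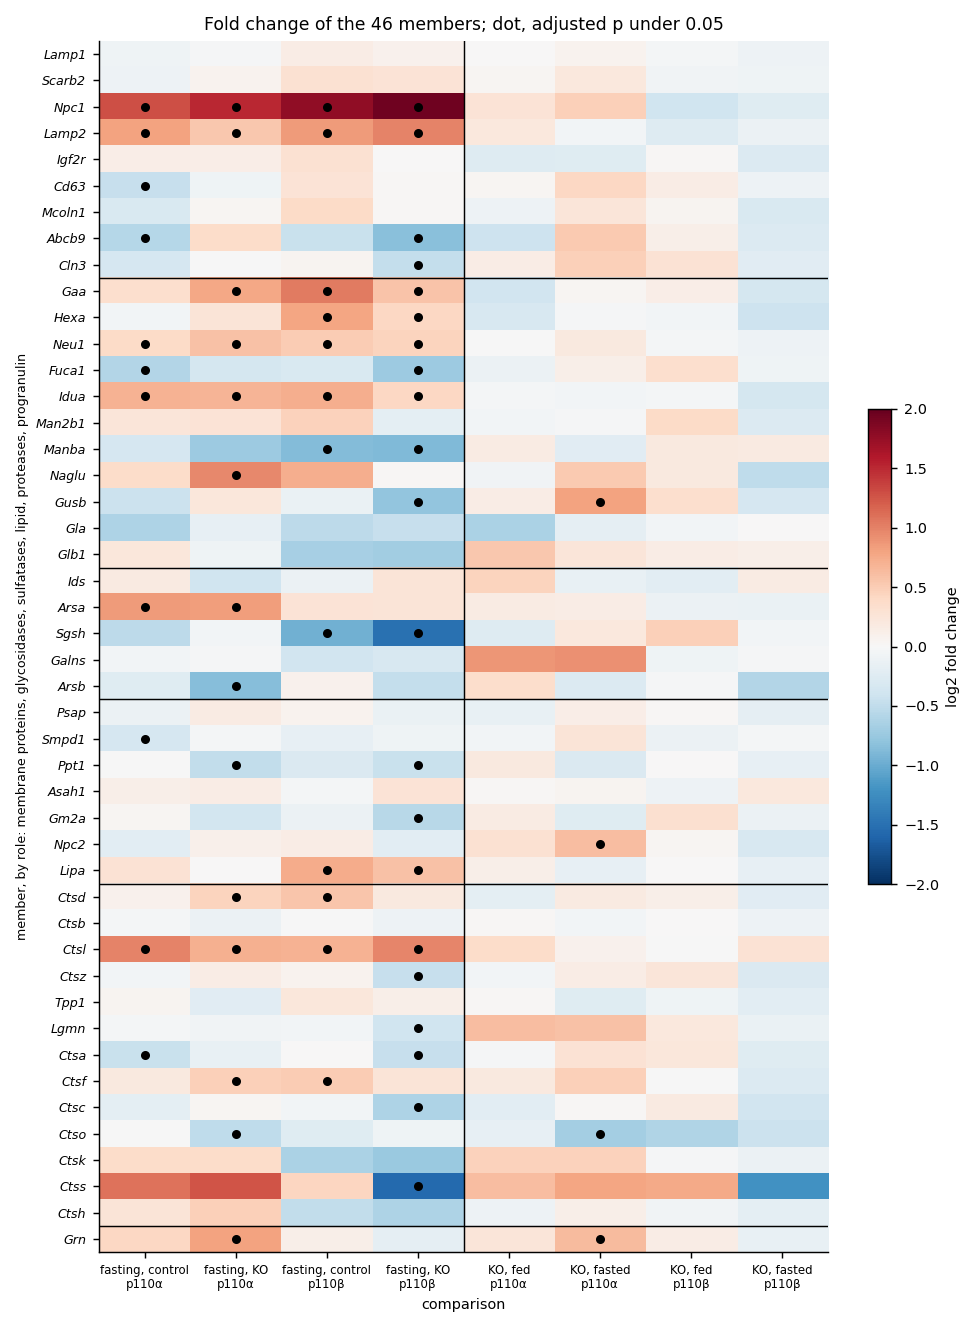
Log2 fold change (color) of the 46 members (vertical, by role and, within it, by level) in 4 comparisons of fasting and 4 of knockout and control (horizontal); dots mark an adjusted p under 0.05. Rows of dots on the left stand at Npc1, Lamp2, Neu1, Idua and Ctsl, and 4 dots stand on the right, all in fasted p110α muscle.

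Among membrane proteins, Lamp2 and Npc1 rose in all 4 comparisons and Lamp1 in none. Lamp2, which serves autophagosome fusion and chaperone-mediated autophagy and whose loss causes Danon disease of heart and muscle, read 102, 95.4, 107 and 106 CPM in fed and 181, 179, 189 and 169 CPM in fasted controls of the p110α line. It read 113, 124, 125 and 112 CPM in fed and 178, 151 and 187 in fasted M-p110αKO. No fasted value overlapped a fed value in either genotype. Controls of the p110β line read 84.1, 94.0 and 82.7 CPM when fed and 139.5, 169.7 and 159.7 when fasted. Its values in M-p110βKO were 62.7, 78.9, 77.6 and 69.0 CPM fed and 150.1, 160.0, 124 and 140.1 fasted. Lamp2 thus rose 1.74-fold, 1.45-fold, 1.81-fold and 1.99-fold, with log2 changes of 0.80 ± 0.09 (SE), 0.54 ± 0.10, 0.86 ± 0.12 and 0.99 ± 0.11 and adjusted p of 5.63e-06, 0.000759, 4.79e-05 and 1.37e-06.

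Npc1 gave the largest rises among the called members, with a wide spread in the p110α line. Controls of the p110β line read 92.2, 113 and 126 CPM fed and 333, 341 and 449 fasted, and M-p110βKO read 82.1, 90.6, 78.6 and 79.8 CPM fed and 391, 244, 261 and 376 fasted. These rises were 3.42-fold and 3.84-fold (log2 1.77 ± 0.18 and 1.94 ± 0.16, adjusted p = 1.18e-06 and 5.07e-08), with no overlap of fed and fasted values. In the p110α line fed controls read 32.0, 34.5, 36.2 and 172 CPM, the last in mouse 4, and fasted controls 159, 293, 119.8 and 109. Fed M-p110αKO read 81.1, 62.2, 77.6 and 114 CPM and fasted M-p110αKO 353, 183 and 174. The p110α rises were called (log2 1.29 ± 0.46 and 1.5 ± 0.49, adjusted p = 0.0423 and 0.0359), but the first was lost without any of mice 1, 2, 3, 9 or 10, with an adjusted p of 0.17 and a log2 change of 0.89 without mouse 10. Without mouse 4 it was 2.32. The second was lost without mouse 5, 6, 7 or 13 (log2 1.08, adjusted p = 0.185 without mouse 13).

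Lamp1 did not pass in any comparison. It read 511, 484, 489 and 435 CPM in fed and 447, 508, 460.1 and 399.7 in fasted controls of the p110α line. Those of the p110β line read 577, 610.3 and 492 CPM fed and 719, 615 and 521 fasted. In M-p110αKO it read 510.0, 502, 504 and 413 CPM fed and 485, 511 and 432 fasted, and in M-p110βKO 489.9, 566, 501 and 619 fed and 528, 648, 568 and 559 fasted. Fed and fasted values overlapped in every case, and its log2 changes lay between -0.09 and 0.15. Of the other membrane proteins, Abcb9, a peptide transporter, fell by 0.57 ± 0.20 in controls of the p110α line and by 0.83 ± 0.19 in M-p110βKO. Cd63, a tetraspanin of late endosomes, fell by 0.46 ± 0.15 in controls of the p110α line and Cln3, the protein mutated in juvenile Batten disease, by 0.47 ± 0.17 in M-p110βKO. The first call of Abcb9 was lost without mouse 2, 3, 4, 9 or 12, that of Cd63 without mouse 1, 3, 4, 9, 11 or 12, and that of Cln3 without 8 of the 14 mice of its line, 1 at a time. Igf2r, Scarb2 and the calcium channel gene Mcoln1 did not pass.

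**Figure D3:**
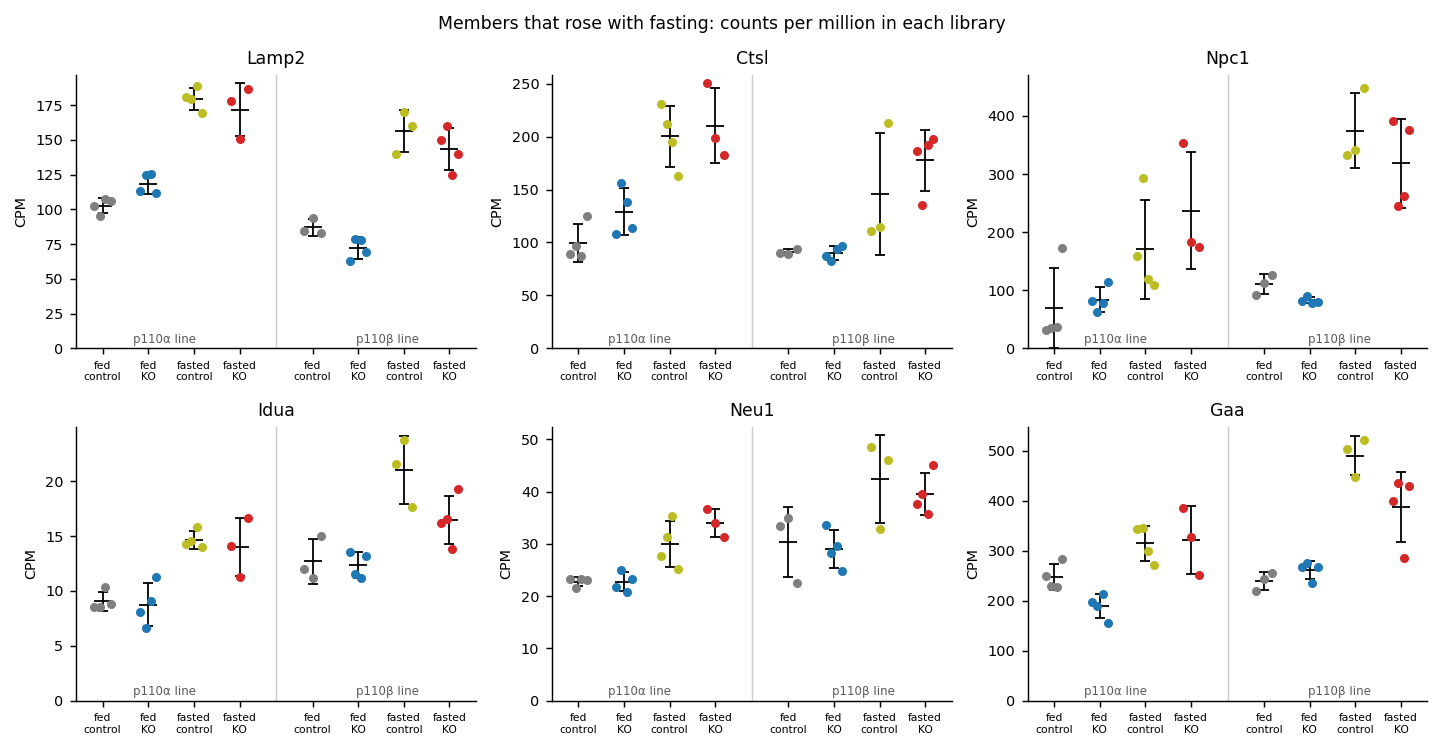
CPM of 6 members that rose with fasting, in each library (points) with group mean ± SD (bars), for the 8 groups from fed controls to fasted knockouts of the p110α (left) and p110β line (right). Lamp2 in fasted mice lies at 124 CPM or above and in fed mice at 125 or below, and mouse 4 stands at 172 CPM among fed controls for Npc1.

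Of the glycosidases, Idua and Neu1 rose in all 4 comparisons, Gaa in 3 and Hexa in those of the p110β line. Idua, which degrades heparan and dermatan sulfate, read 8.53, 8.49, 10.3 and 8.78 CPM in fed and 14.3, 14.5, 15.8 and 14.0 in fasted controls of the p110α line. M-p110αKO read 8.05, 6.63, 9.11 and 11.2 CPM fed and 14.1, 11.3 and 16.6 fasted. Controls of the p110β line read 11.9, 11.1 and 15.0 CPM fed and 21.6, 23.7 and 17.7 fasted, and M-p110βKO read 13.5, 11.5, 11.2 and 13.2 fed and 16.2, 16.6, 13.9 and 19.2 fasted. Fasted values lay above fed values in each of the 4 comparisons. The log2 changes were 0.70 ± 0.16, 0.68 ± 0.17, 0.73 ± 0.16 and 0.41 ± 0.14, with adjusted p of 0.00291, 0.00903, 0.00233 and 0.0286. The call in M-p110αKO was lost without mouse 15 (adjusted p = 0.0626) and that in M-p110βKO without mouse 20, 21 or 29 (up to 0.0837).

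Neu1, a sialidase, read 23.2, 21.5, 23.2 and 23.1 CPM in fed and 27.7, 31.4, 35.3 and 25.2 in fasted controls of the p110α line. It read 21.8, 25.0, 20.8 and 23.3 CPM in fed and 36.6, 33.9 and 31.2 in fasted M-p110αKO. The p110β line gave 33.3, 34.9 and 22.6 CPM in fed and 48.6, 32.9 and 45.95 in fasted controls, and 33.6, 28.2, 29.6 and 24.8 in fed and 37.6, 39.6, 35.6 and 45.1 in fasted M-p110βKO. Only in controls of the p110β line did fed and fasted values overlap. Rises were 0.39 ± 0.11, 0.58 ± 0.12, 0.50 ± 0.17 and 0.44 ± 0.15 on the log2 scale (adjusted p = 0.0146, 0.00248, 0.0376 and 0.0277). Of these calls the first was lost without mouse 11 (adjusted p = 0.0563), the third without mouse 18, 23 or 25 (log2 0.32, adjusted p = 0.186 without mouse 18) and the fourth without mouse 20, 21, 22 or 29 (up to 0.0882).

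Gaa read 248, 228, 227 and 284 CPM in fed and 343, 345, 298 and 271 in fasted controls of the p110α line, which overlap (log2 0.34 ± 0.13, adjusted p = 0.057). In M-p110αKO it read 197, 189.6, 213 and 156 CPM fed and 386, 327 and 251 fasted, a 1.7-fold rise (0.77 ± 0.14, adjusted p = 0.001). This rise started from fed values below those of fed controls, a difference that was not called, and the fasted values of the 2 genotypes overlapped. Controls of the p110β line read 219, 244 and 254 CPM fed and 503, 447 and 521 fasted, a 2.06-fold rise (1.05 ± 0.14, adjusted p = 2.87e-05). M-p110βKO read 268, 276, 235 and 268 CPM fed and 399, 435, 285 and 428 fasted, a 1.48-fold rise (0.56 ± 0.12, adjusted p = 0.00132). Fasted values lay above fed values in the 3 called comparisons.

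Hexa, the α subunit of β-hexosaminidase, whose loss causes Tay-Sachs disease, read 33.3, 37.5 and 36.6 CPM in fed and 69.0, 66.0 and 49.1 in fasted controls of the p110β line, the 2 higher values in mice 23 and 24. In M-p110βKO it read 36.4, 31.9, 34.6 and 34.5 CPM fed and 48.6, 52.7, 38.4 and 44.2 fasted. It rose by 0.79 ± 0.14 and 0.42 ± 0.12 (adjusted p = 0.000324 and 0.0101). In the p110α line it read 36.4, 34.2, 31.4 and 49.2 CPM in fed and 40.7, 35.0, 36.1 and 35.5 in fasted controls, and 29.8, 34.4, 27.1 and 30.1 in fed and 37.1, 35.3 and 36.5 in fasted M-p110αKO, and was not called. Naglu rose in M-p110αKO (0.97 ± 0.28), a call lost without mouse 6, 13 or 14. Manba, the β-mannosidase gene, fell in both genotypes of the p110β line (by 0.86 ± 0.20 and 0.88 ± 0.17). Fuca1, encoding α-fucosidase, fell in controls of the p110α line (by 0.58 ± 0.16, lost without mouse 4) and in M-p110βKO (by 0.72 ± 0.16). Gla, Glb1 and Man2b1 passed in no comparison.

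The sulfatases and lipid enzymes moved both ways. Arsa, which desulfates sulfatide, read 4.54, 4.18, 4.29 and 4.83 CPM in fed and 6.93, 8.93, 9.43 and 7.20 in fasted controls of the p110α line. M-p110αKO read 5.16, 5.60, 4.61 and 4.81 CPM fed and 9.79, 9.21 and 7.85 fasted. These rises of 0.85 ± 0.15 and 0.83 ± 0.16 (adjusted p = 0.000535 and 0.00158) left no overlap. The p110β line read, for Arsa, 8.09, 5.74 and 7.20 CPM in fed and 8.62, 9.14 and 7.61 in fasted controls, and 6.60, 5.98, 7.40 and 5.85 in fed and 8.58, 7.25, 6.60 and 8.68 in fasted M-p110βKO, without a call. Sgsh, which desulfates heparan sulfate, read 3.62, 4.22 and 4.08 CPM in fed and 2.25, 1.65 and 2.15 in fasted controls of the p110β line, and 5.52, 5.70, 4.84 and 5.85 in fed and 2.06, 1.97, 1.45 and 2.37 in fasted M-p110βKO. It fell by 0.96 ± 0.24 and 1.49 ± 0.21 (adjusted p = 0.00671 and 2.47e-05), with no overlap. In the p110α line Sgsh read 3.46, 4.69, 2.92 and 4.22 CPM in fed and 2.17, 1.71, 3.45 and 3.55 in fasted controls, and 2.39, 4.01, 2.92 and 3.47 in fed and 3.22, 3.03 and 3.08 in fasted M-p110αKO, and was not called.

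Lipa, the acid lipase that hydrolyzes cholesteryl esters, rose in both genotypes of the p110β line (0.75 ± 0.20 and 0.58 ± 0.18), the second call being lost without mouse 26. Falls were called for Smpd1, the acid sphingomyelinase gene, in controls of the p110α line (by 0.34 ± 0.11), for Arsb in M-p110αKO (by 0.86 ± 0.29), for Ppt1 in both knockouts (by 0.49 ± 0.15 in M-p110αKO and 0.45 ± 0.16 in M-p110βKO) and for Gm2a, the GM2 activator gene, in M-p110βKO (by 0.55 ± 0.16). Of these calls only that of Gm2a held with each mouse left out in turn. Psap, Asah1, Ids and Galns passed in no comparison of fasting or knockout.

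Ctsl was the one protease that rose in all 4 comparisons. Cathepsin L, its product, is a cysteine endopeptidase whose transcript rises in wasting muscle. In the p110α line Ctsl read 89.2, 97.0, 86.9 and 125 CPM in fed and 231, 212, 195 and 163 in fasted controls, and 108, 156, 139 and 114 in fed and 250.4, 198 and 183 in fasted M-p110αKO. The 2.0-fold and 1.63-fold rises (log2 1.00 ± 0.15 and 0.71 ± 0.16, adjusted p = 9.44e-05 and 0.00438) left no overlap. In the p110β line Ctsl read 89.8, 88.8 and 94.1 CPM in fed and 110.4, 115 and 213 in fasted controls, the last in mouse 25. Fed M-p110βKO read 87.1, 82.2, 94.1 and 96.6 CPM and fasted M-p110βKO 187, 135, 192 and 197. Here the rises were 1.62-fold and 1.97-fold (0.69 ± 0.20 and 0.98 ± 0.17, adjusted p = 0.0132 and 0.000198), again with no overlap, and the call in controls was lost without mouse 25 (log2 0.32, adjusted p = 0.117).

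Ctsa fell in controls of the p110α line (by 0.45 ± 0.11, adjusted p = 0.00476), with no fasted value overlapping a fed one. Cathepsin D and B transcripts were the most abundant of the family per length. Ctsd read 721, 739.5, 789 and 687 CPM in fed and 1112, 914 and 967 in fasted M-p110αKO, and 785, 825 and 941 in fed and 1358, 1328 and 1026 in fasted controls of the p110β line. It rose by 0.45 ± 0.10 and 0.55 ± 0.14 in these (adjusted p = 0.0043 and 0.00575), without overlap. Controls of the p110α line read 817, 820.5, 783 and 920.5 CPM fed and 924, 887, 936 and 814 fasted, and M-p110βKO 868, 889, 885 and 1028 fed and 921, 1238, 996 and 1059 fasted, without a call. Ctsf followed the calls of Ctsd, with rises of 0.48 ± 0.15 in M-p110αKO, lost without mouse 5, 6, 13 or 14, and 0.51 ± 0.13 in controls of the p110β line. Ctsb read 286, 330.1, 318 and 298 CPM in fed and 284, 291, 306 and 326 in fasted controls of the p110α line. Those of the p110β line read 286, 329.9 and 288 CPM fed and 332, 299.9 and 263 fasted. In M-p110αKO it read 314, 341, 299 and 301 CPM fed and 281, 294 and 291 fasted, and in M-p110βKO 271, 277, 304 and 348 fed and 274, 268, 296 and 280.3 fasted. The log2 changes of Ctsb, between -0.12 and 0.00 in the 4 comparisons, all missed the threshold. Ctsh, Ctsk (the collagen-cleaving cathepsin of osteoclasts) and Tpp1, a tripeptidyl peptidase gene, also passed in none.

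In controls of the p110α line other cell types moved with fasting too. Of 7 macrophage markers tested 3 rose, and their summed CPM was 19.4–29.2 in fed and 42.3–80.4 in fasted controls. Of 9 muscle fiber markers 4 fell. The part of these in the member changes was not tested. In controls of the p110β line the adipocyte markers of mice 23 and 24 moved with the result, and all 4 adipocyte markers tested rose, while Lep and Retn were at 0 in fed controls. Without both mice, which leaves mouse 25 as the only fasted control, 5 members rose (Lamp2, Npc1, Lipa, Gaa and Ctsl) and 0 fell. The calls lost then were those of Hexa (log2 0.47, adjusted p = 0.072), Ctsd (0.28, adjusted p = 0.308), Idua (0.48, adjusted p = 0.156), Ctsf, Neu1, Manba and Sgsh. That fit assumes that mouse 25 varies like the other groups.

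With fasting 13 members fell in M-p110βKO, or 10 with the GC and length offsets, and 2 to 5 in the other 3 comparisons. Of all genes 18.9% fell there, also the highest share of the 4, and the counts were not tested against each other. The 13 were Abcb9, Cln3, Fuca1, Gusb, Manba, Sgsh, Gm2a, Ppt1 and the proteases Ctsa, Ctsc, Ctss, Ctsz and Lgmn. Ctsc, the dipeptidyl peptidase that activates granule serine proteases, read 31.0, 32.3, 28.1 and 30.5 CPM fed and 19.2, 23.4, 18.6 and 18.3 fasted, and fell by 0.61 ± 0.12 (adjusted p = 0.000734). Gusb, β-glucuronidase, read 8.13, 7.26, 11.6 and 9.25 CPM fed and 4.61, 7.00, 5.02 and 4.10 fasted, and fell by 0.79 ± 0.20 (adjusted p = 0.00431). Neither overlapped. Ctsa, the protective protein of β-galactosidase and Neu1 (by 0.46 ± 0.13), Ctsz (by 0.47 ± 0.12) and the legumain gene Lgmn (by 0.40 ± 0.12) fell less. Ctss fell by 1.55 ± 0.53 from 0.712–3.10 to 0.00–0.983 CPM, a call lost without mouse 19, 21, 28 or 29. The Lgmn call was lost without mouse 26 or 29, that of Ppt1 without 6 of the 14 mice, 1 at a time, and the GC and length offsets ended those of Ctsz, Lgmn and Cln3. Markers of other cells fell in the same comparison. Of 7 macrophage markers tested 6 fell, from a summed 37.6–65.0 to 24.0–27.1 CPM, and all 7 fibroblast markers fell, from 378–559 to 156–231 CPM. Their part in the falls of the members was not tested. The difference between genotypes in the fasting change was called for 0 of 46 members in edgeR (0.0408% of all genes called higher and 0.0653% lower in M-p110βKO), where an unadjusted p under 0.05 was met by 0 higher (6.15% of all genes) and 7 lower members (6.61%), with 0 calls in DESeq2 or limma-voom.

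**Figure D4:**
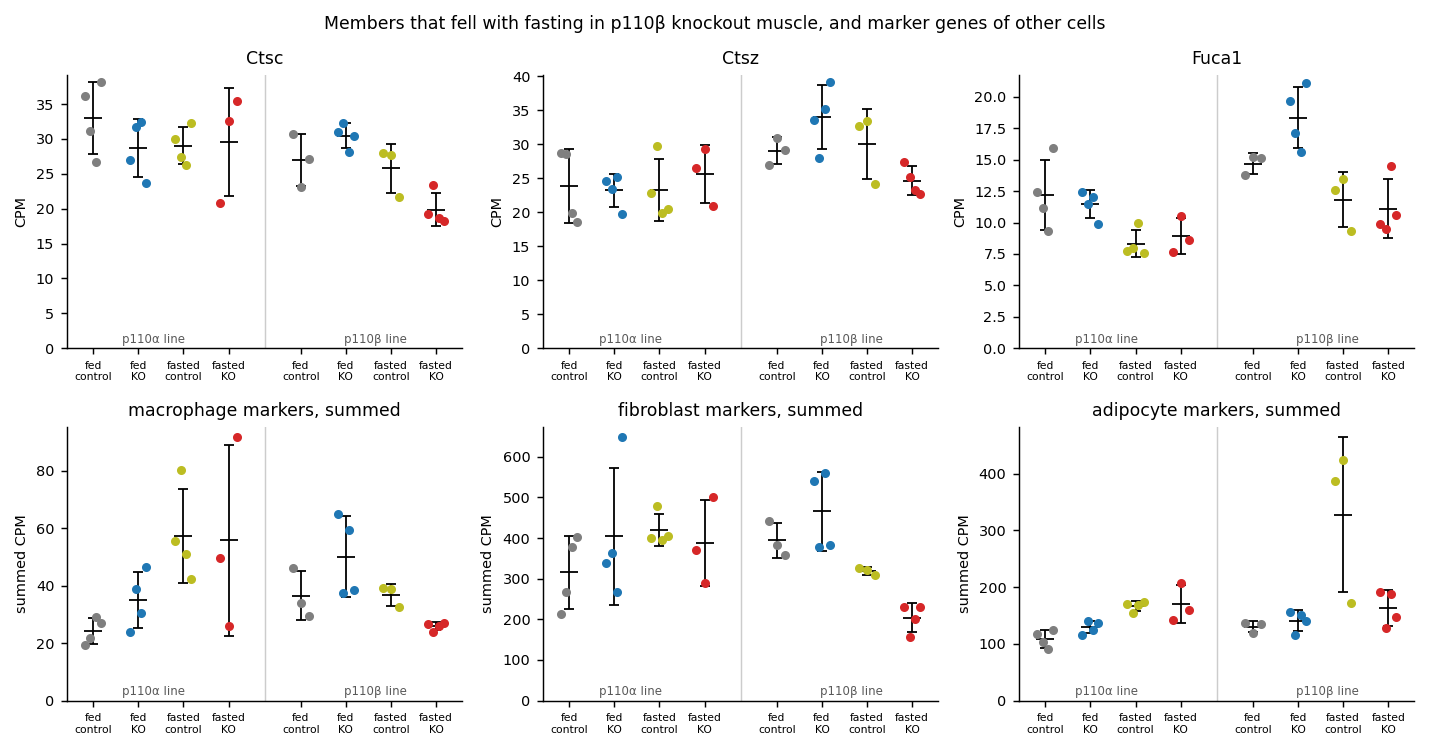
Upper panels, CPM of Ctsc, Ctsz and Fuca1; lower panels, summed CPM of the macrophage, fibroblast and adipocyte markers, in each library (points) with group mean ± SD (bars) for the 8 groups. In fasted M-p110βKO the macrophage and fibroblast sums lie at 24.0–27.1 and 156–231 CPM, and the adipocyte sum is 387 and 424 in 2 fasted controls of the p110β line.

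Between knockout and control, members were called in the fasted p110α line and in none of the other 3 comparisons. In fed M-p110αKO 0 of 46 members passed in edgeR (0.193% of all genes rose and 0.418% fell), 6 were higher (5.17% of all genes) and 4 lower (6.53%) when p was left unadjusted (under 0.05), and DESeq2 and limma-voom called 0. In fasted M-p110αKO 3 rose (3.02% of all genes rose) and 1 fell (3.51% fell), with 11 higher (11% of all genes) and 2 lower (11.7%) unadjusted. With the GC and length offsets 0 rose and 1 fell. Whether this differs from the fed state was not shown: the interaction was called for 0 members in edgeR, DESeq2 or limma-voom (0.209% of all genes higher and 0.273% lower), with 5 higher (7.44% of all genes) and 3 lower (7.51%) unadjusted. The paper reports enriched lysosome and autophagosome genes in M-p110αKO by a pathway test, another measure than calls of single genes. By PCR it reports raised cathepsin L mRNA in fed TA muscle. Here Ctsl averaged 99.6 ± 17.7 CPM (SD, n = 4) in fed controls and 129 ± 22.1 (n = 4) in fed M-p110αKO. These values overlapped, and Ctsl was not called.

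Ctso, encoding the cysteine protease cathepsin O, was the member that fell. It read 18.7, 22.9, 23.2 and 23.1 CPM in fasted controls and 12.5, 12.1 and 16.6 in fasted M-p110αKO, a fall of 0.68 ± 0.14 (adjusted p = 0.011) with no overlap, lost without mouse 14 (adjusted p = 0.0642). Fed mice read 21.6, 21.9, 21.6 and 22.6 CPM as controls and 21.4, 21.8, 18.2 and 16.7 as M-p110αKO, which overlap. Ctso also fell with fasting in M-p110αKO (by 0.51 ± 0.14, adjusted p = 0.0169), lost without mouse 13 or 14. In the p110β line it read 15.1, 17.1 and 13.2 CPM in fed controls against 10.3, 9.40, 9.96 and 9.79 in fed M-p110βKO, and 13.5, 12.9 and 11.2 in fasted controls against 9.53, 10.4, 7.92 and 9.31 in fasted M-p110βKO. The knockout values lay below the control values in both states, but the log2 changes of -0.60 ± 0.14 and -0.43 ± 0.14 had adjusted p of 0.149 and 0.174.

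The 3 members that rose were Grn, Npc2 and Gusb. Progranulin, the product of Grn, is processed in lysosomes to granulins and is abundant in macrophages. Grn read 16.6, 16.1, 16.3 and 16.1 CPM in fasted controls and 22.2, 21.4 and 31.9 in fasted M-p110αKO (0.63 ± 0.18, adjusted p = 0.0449). Npc2, the soluble cholesterol carrier that works with Npc1, read 9.11, 11.8, 9.04 and 9.08 CPM against 13.6, 15.8 and 15.5 (0.62 ± 0.15, adjusted p = 0.0214). Gusb read 5.38, 4.65, 3.32 and 4.54 CPM against 5.83, 8.03 and 9.85 (0.81 ± 0.22, adjusted p = 0.034). In each gene every knockout value lay above every control value. The rises were lost without any of several mice: Npc2 without mouse 9, 11, 12, 14 or 15 (up to adjusted p = 0.0951), Gusb without mouse 10, 11, 12, 14 or 15 (up to 0.12), and Grn without 9 of 15 mice, with a log2 change of 0.43 and an adjusted p of 0.178 without mouse 15. Mouse 15 had the highest Grn and Gusb values and the highest summed macrophage markers, 91.7 CPM, against 49.8 and 25.9 in mice 13 and 14 and 42.3–80.4 in fasted controls. Of 7 macrophage markers tested 0 were called between these groups, and their part in the rises was not tested. Without mouse 14 no member was called.

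**Figure D5:**
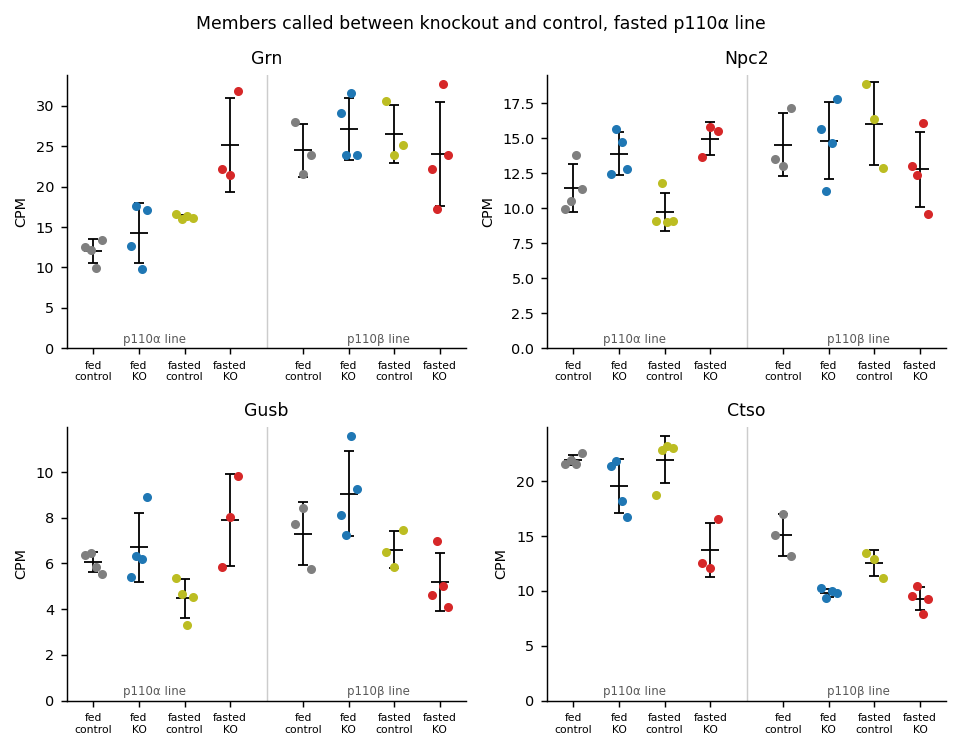
CPM of Grn, Npc2, Gusb and Ctso in each library (points) with group mean ± SD (bars), for the 8 groups of both lines. In the fasted p110α line every M-p110αKO value of Grn, Npc2 and Gusb lies above, and every value of Ctso below, those of controls.

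Fed, the same genes overlapped between M-p110αKO and controls. Grn read 12.5, 12.2, 9.93 and 13.4 CPM in controls and 12.7, 17.6, 9.79 and 17.1 in M-p110αKO. For Npc2 the values were 9.94, 10.5, 13.8 and 11.4 against 12.4, 15.7, 14.7 and 12.8 CPM, and for Gusb 6.37, 6.46, 5.84 and 5.53 against 5.41, 6.35, 6.19 and 8.90. Grn also rose with fasting within M-p110αKO (0.81 ± 0.18, adjusted p = 0.00459).

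In M-p110βKO 0 members passed against controls in edgeR, DESeq2 or limma-voom. When fed, 0% of all 12249 genes rose and 0% fell, and unadjusted p values under 0.05 were found for 2 members higher (4.22% of all genes) and 3 lower (4.43%). When fasted, 0.294% of all genes rose and 0.596% fell, and 0 members were higher (6.16% of all genes) and 9 lower (7.06%) unadjusted. Of the 46 members 40 lay below 0 in the fasted comparison, with a median log2 change of -0.17, against a median of -0.00 for all genes. All 7 macrophage markers tested also lay below 0, 2 of 7 fibroblast markers and 3 of 4 adipocyte markers fell, and their part was not tested. Mice 23 and 24, set apart above by their adipocyte markers, are 2 of the 3 fasted controls here, and their part was not tested either. In mouse 25, the third, Ctsd and Lamp2 lay within the range of fasted M-p110βKO, Lamp1 and Ctsb below it, and Gaa and Ctsl above it. Grn read 28.0, 21.6 and 23.9 CPM in fed controls and 29.1, 23.9, 31.6 and 23.9 in fed M-p110βKO, and 30.6, 23.9 and 25.1 in fasted controls and 22.2, 17.2, 32.7 and 24.0 in fasted M-p110βKO. Npc2 read 13.5, 13.0 and 17.2 CPM and 15.7, 11.2, 14.7 and 17.8 in the fed groups, and 18.9, 16.4 and 12.9 and 13.0, 12.4, 16.1 and 9.62 in the fasted groups. Both overlapped between genotypes in each state. Gusb read 7.725, 8.44 and 5.76 CPM in fed and 6.49, 5.84 and 7.47 in fasted controls of the p110β line. These overlapped the M-p110βKO values given above in each state, and the fasted mean was lower in M-p110βKO (5.18 against 6.60 CPM).

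Fed controls of the p110β line differed from those of the p110α line in 8 members, with 4 higher (9.33% of 12760 genes were higher) and 4 lower (10.9% lower). Grn was 2.02-fold higher, at 24.5 ± 3.24 (SD, n = 3) against 12.0 ± 1.49 CPM (n = 4; log2 1.02 ± 0.19, adjusted p = 0.000566). Arsa (0.65 ± 0.16), Idua (0.51 ± 0.16) and Neu1 (0.41 ± 0.15, adjusted p = 0.0486) were also higher. Ctso (log2 -0.54 ± 0.13), Igf2r (-0.71 ± 0.14), Scarb2 (-0.53 ± 0.10) and Ppt1 (-0.52 ± 0.15) were lower. The calls of Grn, Ctso, Igf2r and Scarb2 held with each of the 29 mice left out in turn. That of Arsa was lost without mouse 16 (adjusted p = 0.0639), that of Idua without mouse 1, 2, 4, 16 or 18, that of Ppt1 without mouse 1, 3, 17 or 18, and that of Neu1 without 20 of the 29 mice. With the GC and length offsets 2 were higher and 4 lower. Of 8 macrophage markers tested 3 were higher in the p110β line, with summed levels of 29.4–46.1 against 19.4–29.2 CPM. Of 5 endothelial markers 3 were higher, with sums of 352–486 against 258–321 CPM, and of 9 muscle fiber markers 3 were higher and 2 lower. The part of these cell types was not tested.

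The fasting change of controls differed between the lines for 1 member, Hexa (0.933% of all genes were called higher and 0.627% lower in the p110β line). The difference was 0.83 ± 0.19 on the log2 scale (adjusted p = 0.0204). It was lost without mouse 16, 23 or 24 (adjusted p up to 0.0635), and without mice 23 and 24 it was 0.52 (adjusted p = 0.375). Without mouse 25, in which Hexa was lowest among the fasted controls, 5 members were called.

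The promoter letters can be set beside the fasting calls. Of the 6 members with TCACGTGA, Ctsd rose in 2 comparisons, Ctsa fell in 2 and Cln3 in 1, and Gla, Igf2r and Mcoln1 passed in none. Of the 9 members with the E-box alone, Ctsl rose in 4, Gaa in 3, Arsa and Ctsf in 2 and Naglu in 1, Sgsh fell in 2 and Lgmn in 1, and Lamp1, with 4 E-boxes, and Glb1 passed in none. Lamp2, Idua and Neu1, which held none, rose in all 4. Ctsa, Cln3 and Lgmn have 2 promoters each, and their matches lie in only 1 of them, which is not the 1 nearest the annotated start of the gene. Among the stretches shown, the matches of Ctsd, Mcoln1 and Ctsl also lie downstream of the gene start in GENCODE M21, though upstream of the RefSeq start. These are descriptions of short windows, and other regulatory sequence was not analysed here.

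Further lysosome genes were counted by the same calls, 48 in the p110α line and 47 in the p110β line. With fasting, 6 rose and 6 fell in controls of the p110α line (15.4% and 14.7% of all genes), 7 and 4 in M-p110αKO (11.6% and 9.91%), 4 and 1 in controls of the p110β line (14.5% and 12.4%), and 5 and 7 in M-p110βKO (19% and 18.9%). Laptm4a, a small membrane protein gene, fell by 0.47 ± 0.09 and 0.52 ± 0.10 in the 2 genotypes of the p110α line and by 0.45 ± 0.11 in M-p110βKO. Mtor, encoding the kinase that restrains TFEB at the lysosome, rose in all 4 comparisons (0.36 ± 0.12, 0.43 ± 0.13, 0.74 ± 0.10 and 0.55 ± 0.09). Tfeb fell in controls of the p110α line (by 0.56 ± 0.15) and in M-p110βKO (by 0.42 ± 0.13). Mitf, of the same family of factors, rose in these comparisons (0.80 ± 0.13 and 0.47 ± 0.13), Tfe3, another of the family, rose in the first (0.42 ± 0.14), and Zkscan3, a repressor of autophagy genes, rose in the second (0.37 ± 0.13). Between knockout and control, 1 rose (Tpcn1, a two-pore channel gene, 0.36 ± 0.09) and 1 fell (Mitf, by 0.59 ± 0.14) in fasted M-p110αKO, where 3.02% and 3.51% of all genes did, and 0 passed in the other 3 comparisons.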

How the data were processed

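The authors deposited raw counts per gene, made with an mRNA library kit, alignment with STAR to GRCm38 and featureCounts of Subread. The labels also name an HTG EdgeSeq mRNA analysis, a probe-based assay, beside that kit, and which reads the table counts is not settled by them. Their versions, the annotation release and the strand setting were not given in the sources used here. Symbols, positions and exon lengths came from GENCODE M21; 713 of 48023 gene IDs without an entry hold 0.0292% of counts. The 2 lines were modeled separately, with a term for each group, in edgeR 4.0.16 (R 4.3.3): filterByExpr (minimum count 10, total 15), TMM factors, the quasi-likelihood F test and Benjamini-Hochberg adjustment over every gene tested (threshold 0.05). "Rose" and "fell" mean past that threshold. SE is the absolute log2 fold change divided by the square root of F. Line contrasts used all 8 groups in 1 fit. Levels are CPM with TMM factors over all libraries, and per-kb levels divide by the union of exons.

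Values in every library are given for up to 4 members of lowest adjusted p in each comparison of knockout or fasting within a line, and for Ctsl, Ctsb, Ctsd, Lamp1, Lamp2 and Gaa. Those of Ctsc in M-p110βKO were added after its values were seen. The members and lists were chosen with earlier results of these data known. The alternatives were DESeq2 1.42.0, its size factors, limma-voom (limma 3.58.1), no filter, a filter of 1 CPM in 3 libraries, GC content and length offsets, no mitochondrially encoded genes, the compared groups alone, and each library left out. A fit without mice 23 and 24 was chosen after seeing the data. The fitting code was tested on simulated data. Nothing in the labels says that mice came from separate litters or cages. Each p-value sets a difference against the spread between these mice within groups, and takes the mice as independent.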

Additional observations from a re-analysis of the deposited data

Results flagged for a closer look

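Among groups of 4 mice, 7 of 80 (16 members with values in every library) held a mouse far from the other 3 by Dixon's criterion, and chance gives about 1 in 20. In fed controls of the p110α line Npc1 read 172 CPM in mouse 4 against 32.0–36.2 in the others, Idua 10.3 CPM in mouse 3 against 8.49–8.78, and Neu1 21.5 CPM in mouse 2 against 23.1–23.2. Among its fasted controls Ctso read 18.7 CPM in mouse 9 against 22.9–23.3, and Npc2 11.8 CPM in mouse 10 against 9.03–9.11. Lamp1 read 413 CPM in mouse 8 against 501–510 in the other fed M-p110αKO, and Ctsd 1030 CPM in mouse 22 against 868–889 in the other fed M-p110βKO. The fasting change of Hexa in controls was larger in the p110β than in the p110α line by 0.827 on the log2 scale in a test of that difference.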

How the results depend on the processing

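Of 71 called values of members, 0 reversed under any alternative. Adjusted p was no longer under 0.05 for 14 with offsets for GC content and exon length, 10 of 70 with the compared groups alone, 8 with no filter, 6 in DESeq2, 2 in limma-voom, 2 with the 1 CPM filter, 1 with DESeq2 size factors and 0 without mitochondrially encoded genes, and the cause was not tested. With no filter beyond 1 read, 2 members were called in fed M-p110αKO, 7 in fasted M-p110αKO, 1 in the interaction of the p110α line and 4 in the difference of fasting between lines. DESeq2 called 4 in that difference. The GC and length offsets left 1 in fasted M-p110αKO. Without mice 23 and 24, 5 were called for fasting in controls of the p110β line and 0 for the difference between lines. With each mouse left out, 40 of the 71 calls held throughout. The counts then ranged, in the p110α line, over 0–0 (knockout, fed), 0–5 (knockout, fasted), 7–12 (fasting, controls), 8–15 (fasting, M-p110αKO) and 0–0 (interaction). In the p110β line they ranged over 0–0, 0–2, 11–15, 16–22 and 0–0 in the same order, and between lines over 0–5 for fasting and 5–8 for fed controls. The compared groups alone gave no separate fit for the interactions, which use all 4 groups of a line. No paired analysis was possible because the groups share no replicate numbers. Low counts limit Galns (1–14 reads), Ctss (0–38) and Arsb (8–31). They also limit Glb1 (8–35), Gla (8–42), Sgsh (11–48), Naglu (11–55), Ctsk (10–66) and Ctsh (9–83). Of all these low-count members, Ctss, Arsb, Sgsh and Naglu carry calls.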
